A study of Mus musculus with 16 samples.

Results

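Interferon-stimulated genes are genes whose transcription rises when a cell senses an interferon. The 36 described here were a fixed list of gene names, chosen with earlier results of these data known. They were looked up in the count table of 54532 genes. Each name matched 1 gene, and all 36 passed the filter on low counts in every comparison. They fall by role into 3 factors of interferon signalling, ISG15 with its protease USP18, 6 nucleic acid sensors and their regulators, 5 members of the oligoadenylate synthetase (OAS) family, 3 members of the IFIT family, 10 other antiviral effectors, 3 genes called the PARP9 group here (Parp9, Dtx3l and Parp14) and 4 interferon-inducible GTPases.

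The RNA came from mouse TCF1+CD8+ T cells, a stem-like state of the CD8 T cell that keeps the transcription factor TCF1. Splenic naive CD8+ T cells from C57BL/6J mice had been repetitively activated in culture over 4 days, so every group, the unstimulated ones included, had met antigen-receptor stimulation before the experiment. The cells were then kept for 1 h with or without prostaglandin E2 (PGE2, 100 ng/ml), a lipid mediator that signals through the EP2 and EP4 receptors. For a further 4 h they received low-dose IL-2 (85 U/ml) alone (called unstimulated here) or together with beads carrying anti-CD3 and anti-CD28 antibodies at 1 bead per cell (stimulated). There were 4 groups of 4 samples, numbered 1 to 4 in each: unstimulated untreated, unstimulated PGE2, stimulated untreated and stimulated PGE2. No interferon was among the agents added. Whether the 4 samples of a group came from separate mice or cultures is not stated, so the p-values measure the spread between these samples, which may be technical.

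The 16 libraries held from about 22678300 to about 42950800 gene counts. All 6 CD8 T cell markers (Cd8a, Cd8b1, Cd3e, Cd3d, Trac, Tcf7) were above 1 CPM (the count scaled to library size with TMM factors) in every group, with a summed level of 2657 to 4433 CPM. The 5 B cell markers summed to 4.61 to 21.2 CPM, with Cd79b the highest on average. The 6 myeloid markers summed to 1.16 to 9.57 CPM, with Mpeg1 the only one above 1 CPM on average in the stimulated groups and Lyz2 at no more than 0.0573 CPM. The 4 plasmacytoid dendritic cell markers summed to no more than 0.735 CPM, with Siglech at 0 in all 16 libraries. What part these cells had in the levels below was not tested.

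Type I interferons bind the receptor chains IFNAR1 and IFNAR2, whose kinases JAK1 and TYK2 phosphorylate STAT proteins. STAT2 and IRF9 belong to the complex ISGF3, which binds the interferon-stimulated response element (ISRE) in target promoters. Interferon-gamma, the type II interferon that activated CD8 T cells secrete, binds IFNGR1 and IFNGR2 and acts through JAK1 and JAK2 on promoters with the gamma-activated site (GAS), and also through the factor IRF1, which binds ISRE-like letters. Many of the induced proteins sense or degrade viral RNA, while others, such as USP18 and the SOCS proteins, shut the pathway down.

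RefSeq promoter windows on GRCm38.p6, running from 250 bases before to 50 bases after an annotated start, were matched for 28 of the 36 genes, in 34 windows. Usp18, Dhx58, Zbp1, Oas2, Mx1, Rtp4, Parp9 and Parp14 had no window. The ISRE letters, GAAA followed after any 2 bases by GAAA again and read on both strands, occurred in at least 1 window of 15 of the 28 genes (53.6%), against 1131 of the 32851 windows of all genes (3.44%). The GAS letters TTCNNNGAA, also read on both strands, occurred for 6 of the 28 (21.4%), against 2726 windows of all genes (8.3%). The percentages count genes for the members and single windows for all genes. The ISRE letters were found for 4 of 4 GTPases, 3 of 4 sensors and regulators, 2 of 4 OAS genes, 2 of 3 IFIT genes, Isg15, 2 of 8 other effectors, 1 of 3 signalling factors (Stat2) and not for Dtx3l. By the tests below, the letters were held under stimulation without PGE2 by 11 of 20 genes with a window that rose. They were also held by 2 of 4 that fell and 2 of 4 that were called neither way. For PGE2 alone these counts were 5 of 10, 0 of 3 and 10 of 15. A match is a run of letters and not evidence of binding.

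The 160 bases before the start are printed for 5 genes picked for holding the ISRE letters and for their changes below. Among genes with a window, the first 3 had the steepest rises under stimulation without PGE2. The last 2 had the largest rises under PGE2 in stimulated cells. The bases are written 5′ to 3′ on the strand of the gene, with the ISRE letters of either strand in capitals.
Isg15, chr4:156200819-156200978, minus strand: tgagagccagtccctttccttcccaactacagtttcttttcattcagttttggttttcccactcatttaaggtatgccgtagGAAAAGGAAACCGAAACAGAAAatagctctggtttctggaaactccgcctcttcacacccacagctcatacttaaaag
Ifit1, chr19:34640729-34640888, plus strand: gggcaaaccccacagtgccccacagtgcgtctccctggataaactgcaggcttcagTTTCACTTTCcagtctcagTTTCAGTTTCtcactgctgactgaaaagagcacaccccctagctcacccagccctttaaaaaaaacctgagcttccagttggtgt
Rsad2, chr12:26456453-26456612, minus strand: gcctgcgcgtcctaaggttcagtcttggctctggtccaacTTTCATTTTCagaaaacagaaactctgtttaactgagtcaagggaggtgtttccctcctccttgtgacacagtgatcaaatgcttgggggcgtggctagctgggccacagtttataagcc
Gbp2, chr3:142620503-142620662, plus strand: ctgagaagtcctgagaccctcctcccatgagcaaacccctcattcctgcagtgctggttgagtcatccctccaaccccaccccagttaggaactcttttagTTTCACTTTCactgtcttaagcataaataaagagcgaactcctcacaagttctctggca
Gbp3, chr3:142559884-142560043, plus strand: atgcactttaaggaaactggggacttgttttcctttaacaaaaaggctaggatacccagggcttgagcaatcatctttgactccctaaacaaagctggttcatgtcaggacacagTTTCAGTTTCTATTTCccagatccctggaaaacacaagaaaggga

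Isg15 held 3 overlapping matches, which began 78, 72 and 66 bases before the start. Ifit1 held matches at 104 and 85 bases, and Rsad2 held 1 at 120 bases. The match of Gbp2 began 59 bases before the start. The overlapping pair of Gbp3 began at 45 and 39 bases, and the window of another annotated Gbp3 start held none. In Ifit1, Rsad2, Gbp2 and Gbp3 the letters lay on the strand opposite to the gene, so they read as TTTC runs. Stat2 held its match further out, 222 bases before the start, and the windows of Irf7, Irf9, Isg20 and Ifi44 held no ISRE letters.

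In unstimulated untreated cells the genes spanned a wide range of levels. On the deposited FPKM scale, which accounts for transcript length, the highest were the GTPase Igtp at 183 FPKM and the guanylate-binding protein Gbp2 at 104 FPKM. Bst2, which encodes the virion-tethering protein tetherin, followed at 71.6 FPKM and Samd9l at 51.6 FPKM. The lowest were Ifi44 at 0.0792 FPKM, Oasl2 at 0.114 FPKM, Oas2 at 0.189 FPKM, Oasl1 at 0.201 FPKM and Rsad2 at 0.275 FPKM. Isg15 stood at 4.79 ± 0.78 FPKM (SD, n = 4). After stimulation without PGE2 Isg15 stood at 73.6 FPKM, next to Gbp2 at 72.9 FPKM, behind Igtp at 257 FPKM and Bst2 at 130.1 FPKM. Of the interferon-inducible GTPases, Igtp and Gbp2 were thus the most abundant genes of the list before the beads were added, while Irgm1 and Gbp3 ranked 12 and 14 of the 36 at 18.0 and 15.0 FPKM, and Ifi44, Rsad2, Oasl1, Oasl2 and Oas2 were scarce.

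**Figure D1:**
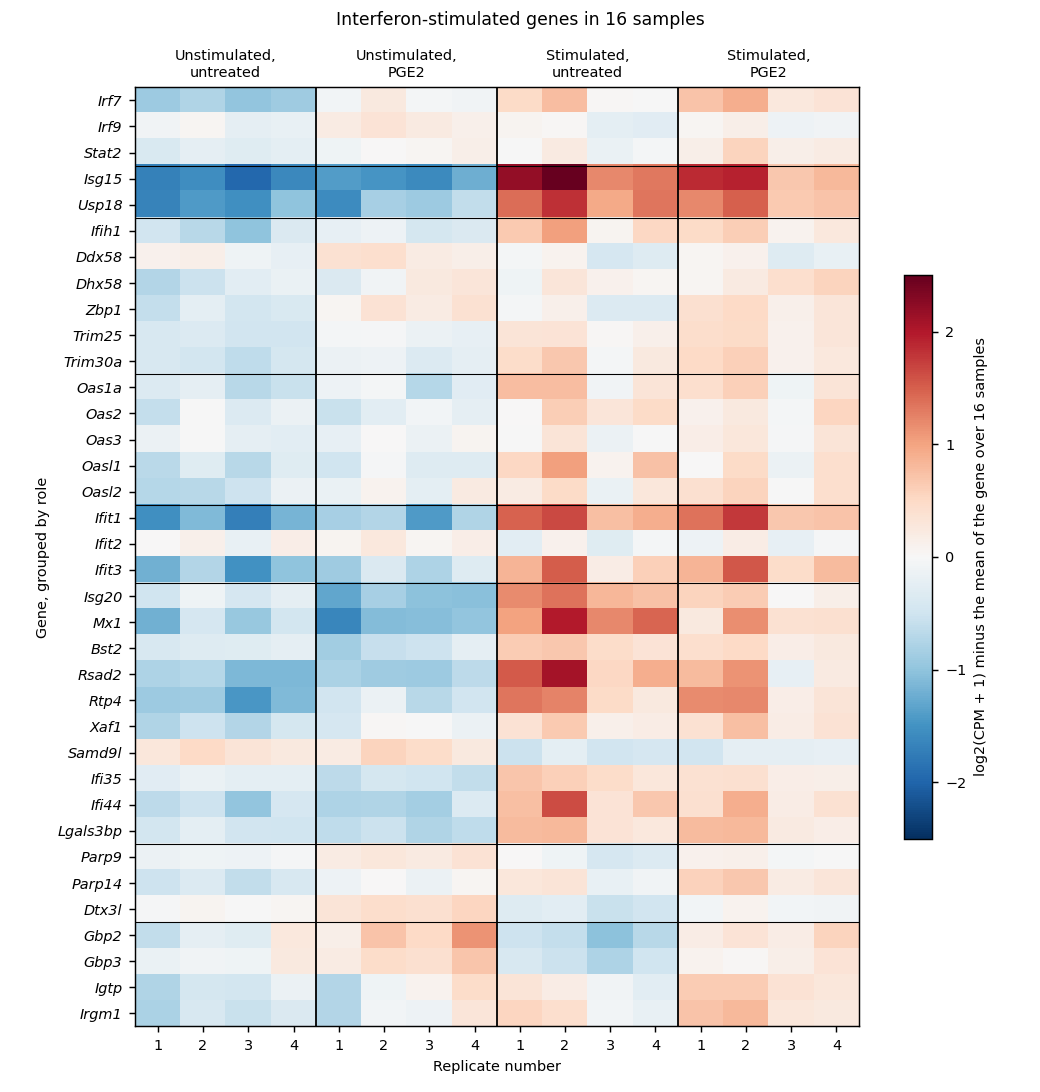
Level of the 36 interferon-stimulated genes in each of the 16 samples, as log2(CPM + 1) minus the mean of that gene over all samples, with genes in rows grouped by role and samples in columns grouped by treatment. Isg15, Usp18 and Ifit1 lie below the gene's mean in every unstimulated and above it in every stimulated sample, and Samd9l is the other way round.

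Stimulation without PGE2 raised most of the 36 genes. In edgeR's quasi-likelihood test, with p-values adjusted over all genes by Benjamini and Hochberg's method and a gene counted as past the test at an adjusted p below 0.05, 27 rose and 4 fell. That is 75.0% and 11.1% of the list, beside 31.7% and 34.8% of the 14205 genes tested (66.5% in either direction). In 15 of them the rise was also at least 2-fold, beside 11.5% of all genes, and none fell by that much. All 4 stimulated samples exceeded all 4 unstimulated ones for 24 genes (66.7%, beside 29.8% of all genes) and lay below them for 3 (8.33%, beside 31.5%). The median log2 fold change was 0.84, beside -0.03 over all genes. In these bulk samples fewer cells of a type and less RNA per cell cannot be told apart.

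Isg15 encodes a ubiquitin-like protein that is conjugated to other proteins after interferon exposure. It stood at 3.79, 4.26, 2.95 and 4.06 CPM in unstimulated untreated replicates 1 to 4, and at 69.9, 89.4, 34.7 and 37.4 CPM in the stimulated ones. The lowest stimulated sample was far above the highest unstimulated one, and stimulated replicates 1 and 2 stood above replicates 3 and 4. The rise was 15.3-fold (log2 fold change 3.93, SE 0.30, adjusted p = 2e-07 by edgeR), the steepest of the list.

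Usp18 encodes the protease that removes ISG15 and also blocks the type I receptor. It was at 2.92, 3.66, 3.26 and 5.21 CPM in unstimulated replicates 1 to 4 and at 31.9, 43.1, 22.8 and 30.2 CPM in stimulated ones, an 8.36-fold rise without overlap (adjusted p = 1.04e-07). Rsad2, the gene of the antiviral enzyme viperin, was at 1.48, 1.58, 0.965 and 0.942 CPM and then at 11.3, 17.0, 5.09 and 6.95 CPM, an 8.17-fold rise (adjusted p = 8.09e-06). Ifit1, whose product binds viral RNA caps, was at 3.27, 4.75, 2.78 and 4.53 CPM and then at 33.4, 38.0, 19.8 and 22.3 CPM, a 7.33-fold rise (adjusted p = 3.07e-07). In all 3 the stimulated groups stood clear of the unstimulated ones, and replicate 2 was the highest stimulated sample.

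Among the other effectors, Ifi44, a gene of little-known function, went from 0.479, 0.627, 0.170 and 0.736 CPM (6 to 25 counts) to 2.91, 6.19, 1.93 and 2.68 CPM, a 6.75-fold rise (adjusted p = 0.000101). Rtp4, which encodes a receptor-transporting protein, went from 9.15, 9.21, 5.90 and 7.89 CPM to 47.2, 43.8, 25.4 and 21.5 CPM, a 4.29-fold rise (adjusted p = 6.49e-06). Isg20, the gene of an RNA exonuclease, went from 12.9, 17.2, 13.6 and 15.9 CPM to 43.3, 49.5, 34.0 and 31.5 CPM, a 2.63-fold rise (adjusted p = 2.71e-06). None of the 3 overlapped. Mx1, Bst2, Xaf1, Ifi35 and Lgals3bp also rose, so 9 of the 10 other effectors were higher. Mx1, the gene of an antiviral dynamin-like GTPase that is defective in many laboratory strains, rose from 4.48 ± 1.41 to 23.8 ± 7.66 CPM. The exception was Samd9l, a translation-restricting effector, which was at 292 ± 23.7 CPM in unstimulated and 172 ± 15.1 CPM in stimulated cells, a log2 fold change of -0.77 with an SE of 0.08.

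The families did not move as blocks. In the OAS family, whose enzymes activate RNase L, Oas1a, Oas2, Oasl1 and Oasl2 rose, from between 0.546 and 1.03 CPM on average to between 1.89 and 2.86 CPM. Oas3, the most abundant of the 5 per length (8.46 FPKM in unstimulated untreated cells, the others 0.114 to 0.526 FPKM), gave 62.3 ± 5.02 and 72.2 ± 10.5 CPM and did not pass the test (adjusted p = 0.0877; 0.0138 when blocked on replicate number). In the IFIT family Ifit1 and Ifit3 rose, the latter from 2.74 ± 0.836 to 13.5 ± 5.79 CPM, while Ifit2, the most abundant per length (6.53 FPKM, the others 1.39 and 1.51 FPKM), gave 26.7 ± 3.10 and 23.9 ± 3.39 CPM (adjusted p = 0.22; lower, at 0.0465, with the block). In both families the scarcer genes rose and the most abundant one did not pass the test.

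Of the 6 sensors and regulators 5 rose. Ifih1, which encodes the long double-stranded RNA sensor MDA5, rose 2.51-fold, on average from 7.11 to 17.9 CPM (adjusted p = 8.28e-05). Ddx58, the gene of the related sensor RIG-I, gave 53.7 ± 6.26 and 48.0 ± 8.10 CPM (adjusted p = 0.213; lower, at 0.0232, with the block). The RIG-I ubiquitin ligase gene Trim25 and its relative Trim30a rose 1.54-fold and 1.78-fold. Dhx58, the gene of the regulatory helicase LGP2, rose 1.42-fold. Zbp1, a sensor of left-handed nucleic acids, stood at 66.8, 85.6, 73.8 and 77.8 CPM unstimulated and at 98.2, 112, 80.7 and 79.9 CPM stimulated. The groups overlapped, the rise was 1.21-fold (adjusted p = 0.0456), and the call was lost when unstimulated replicate 1, 3 or 4 or stimulated replicate 1 or 2 was left out (adjusted p up to 0.151).

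The 3 signalling factors separated from each other. Irf7, the master regulator of type I interferon genes, was at 25.8, 28.7, 24.4 and 26.3 CPM unstimulated and at 69.1, 84.4, 50.2 and 49.3 CPM stimulated, a 2.39-fold rise (log2 fold change 1.26, SE 0.15, adjusted p = 1.03e-05). Stat2 was at 68.5, 76.2, 72.3 and 75.2 CPM and then at 88.3, 104, 79.7 and 85.7 CPM, a 1.22-fold rise (adjusted p = 0.0104). Irf9 was at 92.9, 102, 85.2 and 87.7 CPM and then at 104, 101, 83.6 and 81.9 CPM. The Irf9 groups lay on top of each other (log2 fold change 0.00, SE 0.09, adjusted p = 0.987), while those of Irf7 and Stat2 did not overlap.

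The GTPases and the PARP9 group were split. Gbp2, which attacks the membranes of intracellular pathogens, was at 202, 264, 252 and 372 CPM unstimulated and at 215, 204, 152 and 190.5 CPM stimulated, a fall to 0.693 of its level with overlapping groups (log2 fold change -0.53, SE 0.16, adjusted p = 0.0119). Its neighbour Gbp3 on chromosome 3 was at 46.2, 48.7, 47.9 and 61.3 CPM and then at 39.0, 35.3, 30.1 and 36.4 CPM, a fall without overlap (log2 fold change -0.55, SE 0.11, adjusted p = 0.000588). The immunity-related GTPase genes Igtp and Irgm1 rose 1.39-fold and 1.64-fold. In the group of the ADP-ribosyltransferase-like PARP9, the partner ligase gene Dtx3l fell (log2 fold change -0.43, SE 0.08). Parp14 rose 1.47-fold and Parp9 gave 144 ± 5.22 and 133 ± 18.4 CPM (adjusted p = 0.251). With Samd9l, these falls of Gbp2, Gbp3 and Dtx3l were the 4 in the list.

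**Figure D2:**
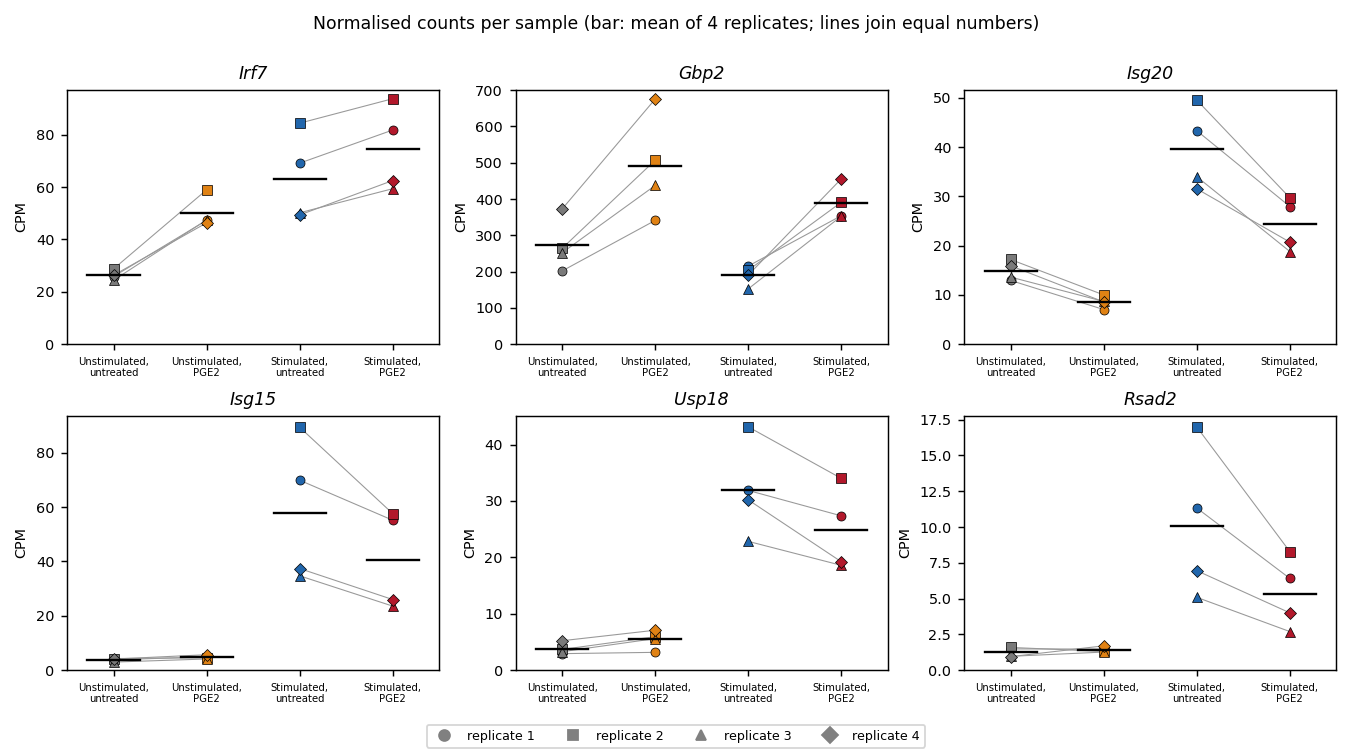
CPM of Irf7, Gbp2, Isg20, Isg15, Usp18 and Rsad2 in each sample of the 4 groups, with 1 symbol for each replicate, lines between samples of the same number, and a bar for the group mean. Isg15, Usp18 and Rsad2 rise with stimulation, Gbp2 is higher with PGE2 in both states, and Isg20 is lower with PGE2 in both.

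Stimulation in the presence of PGE2 was tested in the 8 other samples. Of the 36 genes, 25 rose and 3 fell (69.4% and 8.33%, beside 32.5% and 31.7% of the 14507 genes tested, 64.2% in either direction). The rise was at least 2-fold for 10, beside 12.7% of all genes. The median log2 fold change was 0.64. The stimulated samples lay above all unstimulated ones for 20 genes (55.6%, beside 28.1% of all genes) and below them for 4 (11.1%, beside 32.1%). Of the genes that rose, 24 had also risen without PGE2, and Samd9l and Dtx3l fell in both comparisons.

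With PGE2 present Isg15 went from 4.90, 4.56, 4.10 and 5.66 CPM in replicates 1 to 4 to 55.2, 57.6, 23.6 and 26.0 CPM, an 8.72-fold rise (adjusted p = 7.84e-06). Ifit1 went from 5.95, 6.48, 3.64 and 6.37 CPM to 30.9, 41.3, 19.0 and 19.4 CPM, a 5.10-fold rise (adjusted p = 2.63e-05). Ifi44 went from 0.350, 0.378, 0.287 and 0.835 CPM to 2.04, 3.37, 1.64 and 2.00 CPM, a 4.93-fold rise (adjusted p = 0.000229). Every stimulated sample exceeded every unstimulated one in these 3. Usp18 went from 3.15, 5.93, 5.59 and 7.07 CPM to 27.4, 34.0, 18.6 and 19.2 CPM, a 4.70-fold rise (adjusted p = 2.36e-05). It did not overlap either, and these 4 had the largest changes among the genes whose mean reached 1 CPM.

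Irf7 rose 1.54-fold on stimulation with PGE2 (adjusted p = 0.00283), Rsad2 3.84-fold (adjusted p = 0.000311) and Isg20 2.93-fold (adjusted p = 1.32e-05). Gbp2 and Gbp3, which had fallen without PGE2, had log2 fold changes of -0.28 (SE 0.18, adjusted p = 0.186) and -0.24 (SE 0.11, adjusted p = 0.0706). Ddx58 fell, with a log2 fold change of -0.32 (SE 0.11, adjusted p = 0.0205). The calls of Stat2 and Igtp were each lost without any of 4 libraries, with adjusted p up to 0.105 and 0.0828. For Stat2 these were unstimulated PGE2 replicates 1, 2 and 3 and stimulated PGE2 replicate 2, and for Igtp unstimulated PGE2 replicates 2 and 3 and stimulated PGE2 replicates 1 and 2. Oas3 and Oasl1 were each lost without unstimulated PGE2 replicate 1 or 3 or stimulated PGE2 replicate 2, Oas1a without stimulated PGE2 replicate 2 and Ddx58 without unstimulated PGE2 replicate 2.

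PGE2 alone, in cells that received no beads, raised more of the genes than it lowered. Of the 36 genes, 14 rose and 3 fell (38.9% and 8.33%), beside 12.9% and 15.5% of the 14505 genes tested (28.4% in either direction). None changed 2-fold, beside 3.38% of all genes. The median log2 fold change was 0.34, beside -0.001 over all genes, and 29 of the 36 estimates were positive, beside 7235 of 14505. All PGE2 samples exceeded all untreated ones for 11 genes (30.6%, beside 15.1% of all genes) and lay below them for 3 (8.33%, beside 14.5%). The numbers of the replicates paired the samples here, and with the replicate number as a block 23 rose and 5 fell (63.9% and 13.9%), beside 23.6% and 24.2% of all genes (47.8% in either direction).

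All 3 signalling factors rose. Irf7 was at 25.8, 28.7, 24.4 and 26.3 CPM in untreated replicates 1 to 4 and at 47.3, 58.9, 47.5 and 46.3 CPM with PGE2. The groups were far apart for their spread, with every PGE2 sample between 1.76 and 2.05 times the untreated sample of its number. The rise was 1.86-fold (log2 fold change 0.90, SE 0.09, adjusted p = 3.14e-05), with the smallest adjusted p of the list in this comparison. Stat2 was at 68.5, 76.2, 72.3 and 75.2 CPM without and at 82.7, 89.4, 91.9 and 98.3 CPM with PGE2, a 1.22-fold rise (adjusted p = 0.00789). Irf9 was at 92.9, 102, 85.2 and 87.7 CPM without and at 115, 125, 116 and 109 CPM with PGE2, a 1.24-fold rise (adjusted p = 0.00583). Neither overlapped, so both of these ISGF3 genes were modestly higher.

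Every gene of the PARP9 group rose, with Parp9 at 1.27-fold (adjusted p = 0.00118), Parp14 at 1.31-fold (adjusted p = 0.00302) and Dtx3l at 1.30-fold (adjusted p = 0.000847). Of the sensors and regulators 4 of 6 rose. Zbp1 led them, from 66.8, 85.6, 73.8 and 77.8 CPM to 106, 131, 117 and 132 CPM, a 1.57-fold rise without overlap (adjusted p = 0.000347). Trim25, Trim30a and Ddx58 rose 1.23-fold, 1.18-fold and 1.21-fold. Ifih1 and Dhx58 were at 1.28-fold and 1.36-fold but did not pass the test (adjusted p = 0.121 and 0.0671; 0.0117 and 2.92e-06 with the replicate block).

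Of the GTPases, Gbp2 was at 202, 264, 252 and 372 CPM untreated and at 341, 507, 437 and 675 CPM with PGE2. Untreated replicate 4 exceeded PGE2 replicate 1, so the groups overlapped, but each PGE2 sample was 1.69 to 1.92 times the untreated sample of its number (log2 fold change 0.82, SE 0.21, adjusted p = 0.0143). Gbp3 went from 46.2, 48.7, 47.9 and 61.3 CPM to 60.3, 71.3, 68.8 and 84.4 CPM, also with overlap (log2 fold change 0.45, SE 0.12, adjusted p = 0.0125). Igtp and Irgm1 were 1.32-fold and 1.31-fold higher without passing the test (adjusted p = 0.189 and 0.135). With the replicate block they passed it (adjusted p = 0.00038 and 0.000171).

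The other antiviral effectors went both ways. Rtp4 rose from 9.15, 9.21, 5.90 and 7.89 CPM to 12.6, 16.1, 10.7 and 12.7 CPM (1.60-fold, adjusted p = 0.00844), and Xaf1 rose 1.39-fold (adjusted p = 0.00919). Isg20 fell from 12.9, 17.2, 13.6 and 15.9 CPM to 7.04, 10, 8.68 and 8.59 CPM, 0.565 of its level, without overlap (log2 fold change -0.82, SE 0.13, adjusted p = 0.000681). Ifi35, whose product is a secreted danger signal and binding partner of NMI, fell to 0.786 of its level (adjusted p = 0.00177) and Lgals3bp to 0.839 (adjusted p = 0.0184). These 3 were the falls of the list, and Isg20 showed the largest.

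Isg15, Usp18, Rsad2 and Ifit1, the steepest risers under stimulation without PGE2, did not pass the test for PGE2 alone. Isg15 was at 3.79, 4.26, 2.95 and 4.06 CPM without and at 4.90, 4.56, 4.10 and 5.66 CPM with PGE2, with overlapping groups (1.26-fold, adjusted p = 0.152; 0.0328 with the replicate block). Usp18 was at 1.42-fold (adjusted p = 0.163; 0.00315 with the block) and Ifit1 at 1.43-fold (adjusted p = 0.108; 0.00175 with the block). Rsad2, at 1.48, 1.58, 0.965 and 0.942 CPM without and 1.47, 1.31, 1.26 and 1.70 CPM with PGE2, missed the threshold in both fits (adjusted p = 0.586; 0.482 with the block). None of the 5 OAS and 3 IFIT genes passed the test, and Oasl2 and Ifit3 joined Ifit1 in passing it with the block (adjusted p = 0.00497 and 0.000929). Mx1 and Bst2 were lower with the block (log2 fold change -0.59 and -0.25, adjusted p = 0.00226 and 0.00115), and at -0.60 and -0.24 without it (adjusted p = 0.0995 and 0.137).

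Some calls of PGE2 alone rested on single libraries. Ddx58 was lost without untreated replicate 3 or 4 or PGE2 replicate 1, 2 or 3 (adjusted p up to 0.103). Trim30a was lost without untreated replicate 3 or PGE2 replicate 2 (0.0528 and 0.0602), and Lgals3bp without untreated replicate 2 or PGE2 replicate 3 (0.0922 and 0.0607). The other 14 calls remained in all 8 such fits.

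In stimulated cells PGE2 changed 6 of the 36 genes past the test. Of these, 5 rose and 1 fell (13.9% and 2.78%), beside 6.04% and 3.80% of the 13922 genes tested (9.84% in either direction). Gbp2 alone changed 2-fold, beside 1.75% of all genes. The median log2 fold change was 0.08, beside -0.006 over all genes. All PGE2 samples exceeded all untreated ones for 3 genes (8.33%, beside 11.5% of all genes) and lay below them for 1 (2.78%, beside 6.23%).

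Of the 4 GTPases 3 rose. Gbp2 was at 215, 204, 152 and 190.5 CPM in stimulated untreated replicates 1 to 4 and at 354, 391, 353 and 456 CPM with PGE2, a 2.04-fold rise without overlap (log2 fold change 1.03, SE 0.12, adjusted p = 0.000807). Gbp3 was at 39.0, 35.3, 30.1 and 36.4 CPM without and at 55.0, 53.1, 57.5 and 66.1 CPM with PGE2, a 1.64-fold rise without overlap (adjusted p = 0.00192). Both were thus higher with PGE2 in either state, and in both states every sample exceeded the untreated one of its number. Igtp rose 1.35-fold, from 541 ± 96.5 to 733 ± 91.0 CPM (adjusted p = 0.0406), and Irgm1 was at 1.26-fold (adjusted p = 0.235).

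Zbp1 stood at 98.2, 112, 80.7 and 79.9 CPM without and at 135, 145, 112 and 126 CPM with PGE2, a 1.39-fold rise (adjusted p = 0.0265), and Dtx3l rose 1.29-fold (adjusted p = 0.014). Isg20 fell from 43.3, 49.5, 34.0 and 31.5 CPM to 27.9, 29.7, 18.8 and 20.7 CPM, 0.611 of its level, without overlap (log2 fold change -0.71, SE 0.17, adjusted p = 0.0268). Gbp2, Gbp3, Zbp1, Dtx3l and Isg20 passed the test for PGE2 in both states, each in the same direction.

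The calls of Gbp2, Gbp3 and Dtx3l remained without any 1 library. Zbp1 was lost without untreated replicate 1, 3 or 4 or PGE2 replicate 2 or 4 (adjusted p up to 0.076). Isg20 was lost without untreated replicate 1 or 2 or PGE2 replicate 3 or 4 (up to 0.0841), and Igtp without untreated replicate 2, 3 or 4 or PGE2 replicate 1, 2 or 3 (up to 0.11).

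The replicate number made the largest difference in this comparison, although number 2 was not closest to its own number. Its deviations from the group means correlated at r = 0.191 with the same number and at up to 0.248 with another. With the replicate number as a block 13 genes rose and 10 fell (36.1% and 27.8%), beside 19.1% and 20.7% of all genes (39.8% in either direction). Higher were Irf7 and Stat2, the 3 genes of the PARP9 group, the 4 GTPases, the sensors and regulators Dhx58, Zbp1 and Trim25, and Samd9l. Lower were Isg15 and Usp18, the sensor gene Ifih1, the OAS family gene Oasl1 and the effectors Isg20, Mx1, Bst2, Rsad2, Ifi35 and Ifi44.

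Isg15 shows how the fits part. It was at 69.9, 89.4, 34.7 and 37.4 CPM in untreated replicates 1 to 4 and at 55.2, 57.6, 23.6 and 26.0 CPM with PGE2. The spread over the replicate numbers was larger than the shift, so the groups overlapped, while each PGE2 sample was 0.644 to 0.789 of the untreated sample of its number. The log2 fold change was -0.52 in both fits, with an SE of 0.36 and an adjusted p of 0.365 without the block and an adjusted p of 7.42e-05 with it.

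Rsad2 was at 11.3, 17.0, 5.09 and 6.95 CPM without and at 6.41, 8.28, 2.69 and 4.00 CPM with PGE2, 0.487 to 0.576 within numbers (adjusted p = 0.169; 3.92e-05 with the block). Mx1 was at 17.1, 34.6, 19.9 and 23.7 CPM without and at 9.73, 19.3, 10.7 and 11.0 CPM with PGE2, 0.464 to 0.569 within numbers (adjusted p = 0.0568; 7.35e-06 with the block). Usp18 was at 31.9, 43.1, 22.8 and 30.2 CPM without and at 27.4, 34.0, 18.6 and 19.2 CPM with PGE2, 0.636 to 0.859 within numbers (adjusted p = 0.288; 0.00237 with the block). Each of these 3 was lower with PGE2 in all 4 numbers, with overlapping groups.

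Irf7 was at 69.1, 84.4, 50.2 and 49.3 CPM without and at 81.8, 93.7, 59.4 and 62.5 CPM with PGE2, 1.11 to 1.27 times within numbers (adjusted p = 0.437; 0.00154 with the block). Stat2 was at 88.3, 104, 79.7 and 85.7 CPM without and at 99.3, 132, 98.4 and 103 CPM with PGE2 (1.21-fold, adjusted p = 0.161; 0.000733 with the block). Irf9 was at 104, 101, 83.6 and 81.9 CPM without and at 103, 110.1, 91.5 and 93.3 CPM with PGE2, and did not pass either fit (adjusted p = 0.475; 0.083 with the block). Ifit1 and Rtp4 were close to level, at 0.969 and 0.926 of the untreated value (adjusted p = 0.931 and 0.832), and passed neither fit.

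**Figure D3:**
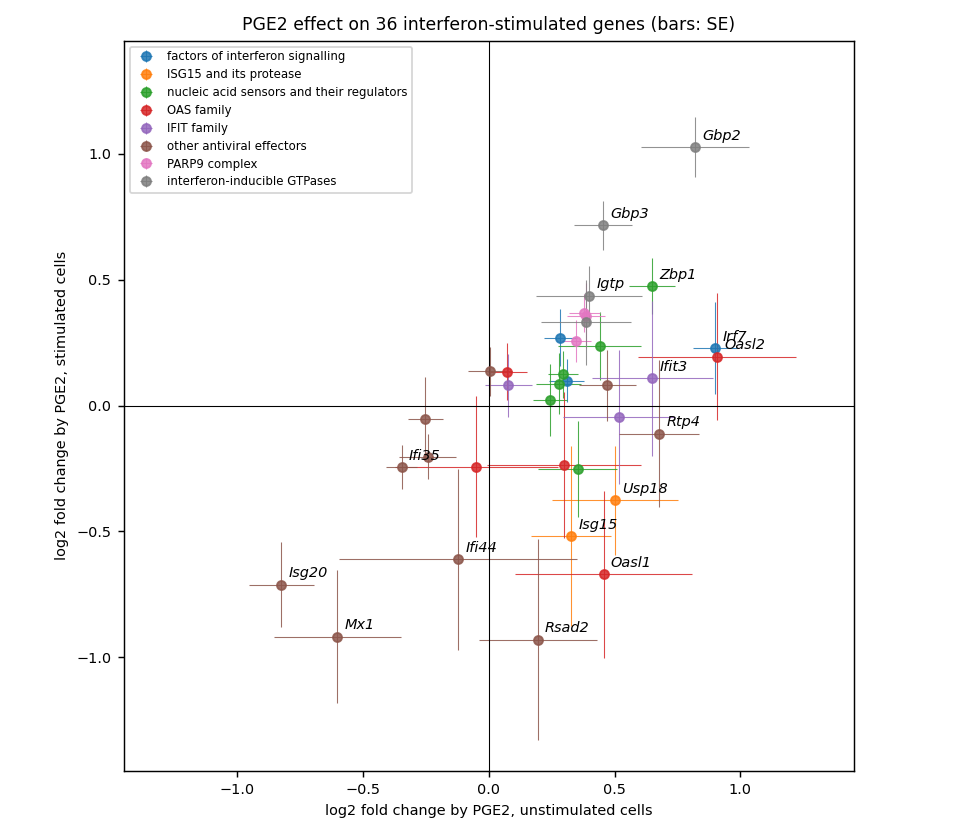
Log2 fold change of each of the 36 genes by PGE2 in unstimulated cells (x axis) and in stimulated cells (y axis), with bars of 1 SE and colours by role. Gbp2 and Gbp3 lie in the upper right, Isg20 in the lower left, and Rsad2, Oasl1, Isg15 and Usp18 are to the right of 0 on the x axis and below 0 on the y axis.

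Both PGE2 comparisons can be set side by side, since they share no samples. The sign of the estimate was the same for 28 of the 36 genes (77.8%), beside 78.5% of the 13571 genes tested in both. The remaining 8 (22.2%, beside 10.5% of all genes) were higher in unstimulated and lower in stimulated cells. Whether the effect of PGE2 differed between the states was tested by the interaction term over all 16 samples. None of the 36 passed it by edgeR, beside 0.749% of the 15096 genes tested, and none by DESeq2. An unadjusted p below 0.05 was found for 6. That count was not made over all genes, so whether 6 is many or few cannot be told. The smallest adjusted p was 0.254, for Irf7 (log2 difference -0.66, SE 0.22). Of the 36 estimates 24 were negative and 12 positive, beside 9268 positive of 15096 over all genes. Isg15, with a log2 difference of -0.84 (SE 0.45, adjusted p = 0.626), and Rsad2, with -1.12 (SE 0.52, adjusted p = 0.516), had wide errors. With the replicate block 2 genes passed (5.56%, beside 2.70% of all genes), Irf7 (log2 difference -0.64, adjusted p = 0.00905) and Rtp4 (-0.79, adjusted p = 0.0417). Rtp4 with PGE2 was at 1.37 to 1.82 times the untreated sample of its number in unstimulated cells and at 0.796 to 1.06 times in stimulated ones. For Irf7 these ratios were 1.76 to 2.05 and 1.11 to 1.27. Ratios without overlap between the states were not particular to these 2 genes. Isg15, Usp18 and Rsad2, which passed neither fit, had them too. The replicate block treats a number as shared by both states, although the numbers did not pair the samples for stimulation with PGE2. The other genes of the list passed neither fit.

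**Figure D4:**
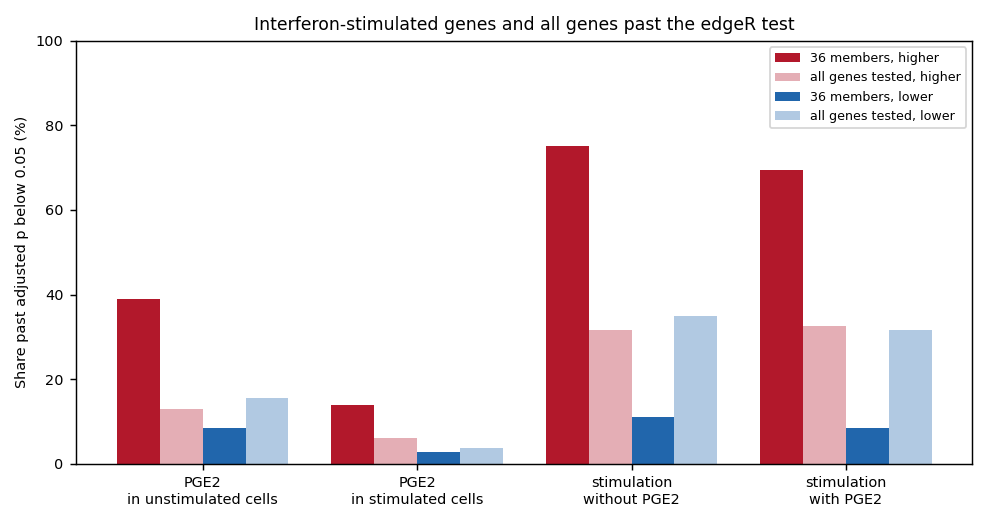
Percent of the 36 genes (dark bars) and of all genes tested (pale bars) with an adjusted p below 0.05, higher (red) or lower (blue), in each of the 4 comparisons. The list stands above all genes for rises and below them for falls in every comparison. For PGE2 in stimulated cells the falls are 1 gene (2.78%, beside 3.80% of all genes). With the replicate block, not drawn, 27.8% of the list fell there, beside 20.7% of all genes.

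Which replicate was highest or lowest over the list differed in part between the states. Replicate 2 was the highest of the 4 samples for 22 of the 36 genes in unstimulated untreated cells, for 28 in stimulated untreated and for 29 in stimulated PGE2 cells. In unstimulated PGE2 cells replicate 4 was the highest for 19 and replicate 2 for 16. Replicate 3 was the lowest for 22 and 27 genes in the stimulated groups, and replicate 1 for 17 and 20 in the unstimulated ones. What distinguishes the numbers is not stated.

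Of the 11 ligand genes looked up, interferon-gamma alone passed the filter on low counts. Ifng was at 3.35, 4.78, 7.29 and 25.8 CPM in unstimulated untreated replicates 1 to 4 and at 0.945, 1.13, 2.38 and 5.64 CPM with PGE2, at 0.219 to 0.326 of the untreated sample of each number. The groups overlapped, replicate 4 being the highest of both (log2 fold change -2.05, SE 0.68, adjusted p = 0.0431; 1.7e-09 with the replicate block). Without the block the call was lost on leaving out untreated replicate 3 or 4 or PGE2 replicate 1, 2 or 3 (adjusted p up to 0.18), and DESeq2 gave an adjusted p of 0.0557. In stimulated cells Ifng stood at 1279.8, 1238, 796 and 638 CPM without and at 797, 664, 244 and 106 CPM with PGE2 (log2 fold change -1.14, SE 0.51, adjusted p = 0.184; -1.45 and 0.00112 with the block). Here replicates 1 and 2 were the highest in both groups and each PGE2 sample was below its untreated counterpart.

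Stimulation raised Ifng by 6.54 on the log2 scale without PGE2 (adjusted p = 7.08e-07) and by 7.49 with it (adjusted p = 1.33e-05). Of the 10 other ligand genes on the list, Ifnb1 and Ifna5 were at 0 in all 16 libraries, which allows up to 3 counts, or 0.0783 to 0.131 CPM, in each. The 8 others had at most 5 counts in a library, so transcripts of these 10 genes were close to or below the floor in every group. Other type I interferon genes were not looked up.

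**Figure D5:**
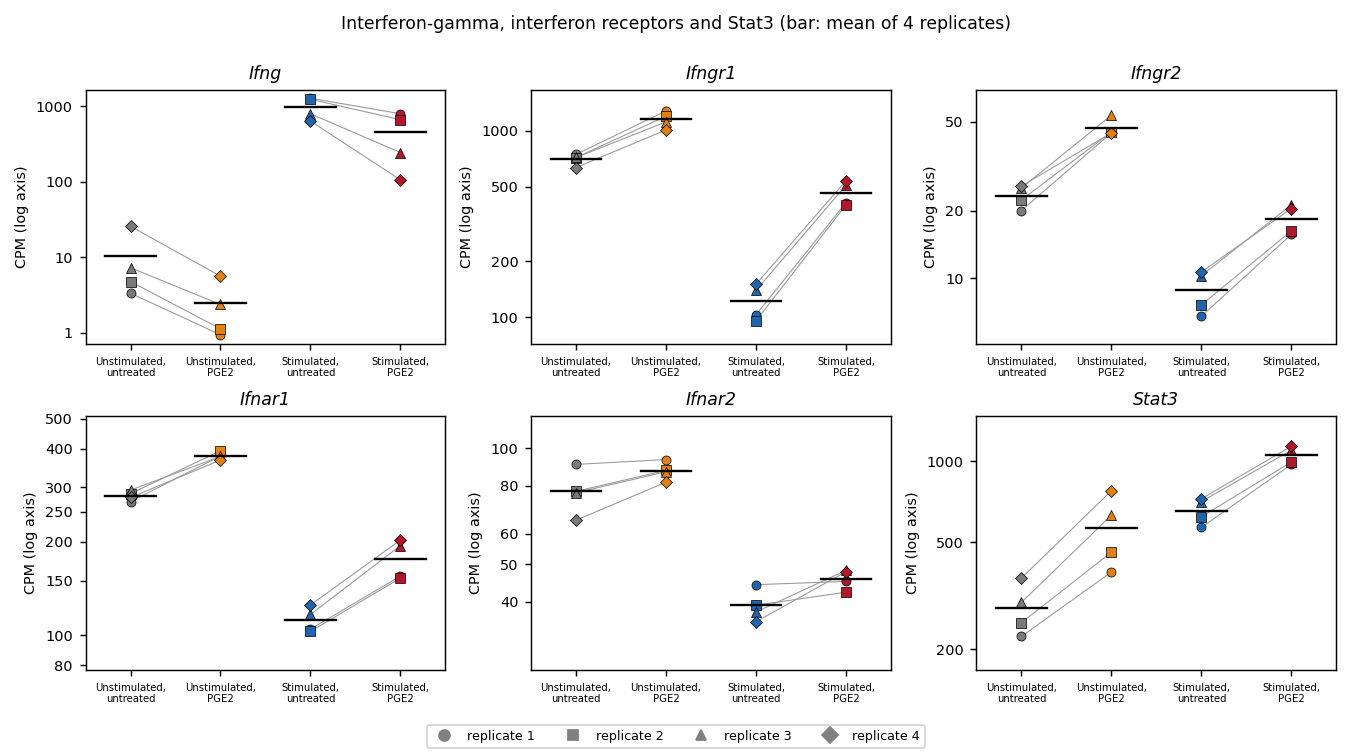
CPM of Ifng, the receptor genes Ifngr1, Ifngr2, Ifnar1 and Ifnar2, and Stat3 in each sample of the 4 groups, on log axes, with 1 symbol for each replicate, lines between samples of the same number within a state, and a bar for the group mean. Ifng rises and all 4 receptor genes fall with stimulation, Ifngr1, Ifngr2 and Ifnar1 are higher with PGE2 in both states, and Stat3 is higher with stimulation and with PGE2.

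Of the 8 receptor and kinase genes tested, 5 rose and 0 fell with PGE2 alone, and 4 rose and 0 fell with PGE2 in stimulated cells. The rises are 62.5% and 50% of the list, beside 12.9% and 6.04% of all genes. Ifngr1 was at 745, 717, 718 and 634 CPM in unstimulated untreated cells and at 1274, 1193, 1112 and 1007 CPM with PGE2 (adjusted p = 9.64e-05). In stimulated cells it was at 103, 95.9, 139.5 and 151 CPM without and at 411, 399.7, 509.6 and 538 CPM with PGE2, a 3.78-fold rise (adjusted p = 0.000303). Stimulation lowered Ifngr1 in both settings, and PGE2 raised it by more in stimulated than in unstimulated cells (log2 difference 1.25, SE 0.20, adjusted p = 0.00682).

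Ifngr2 was at 20.1, 22.4, 25.3 and 25.8 CPM unstimulated and at 44.6, 45.0, 53.5 and 44.6 CPM with PGE2 (1.96-fold, adjusted p = 3.35e-05). It was at 6.78, 7.62, 10.3 and 10.7 CPM after stimulation and at 15.7, 16.3, 21.3 and 20.5 CPM with PGE2 (2.08-fold, adjusted p = 0.00736). Ifnar1 rose from 282 ± 10.3 to 379.7 ± 10.8 CPM with PGE2 alone (adjusted p = 0.000228) and from 112 ± 10.5 to 176 ± 26.1 CPM in stimulated cells (adjusted p = 0.0115). The groups of both genes did not overlap in either state.

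Ifnar2 did not pass the test in either state (1.11-fold, adjusted p = 0.225, and 1.17-fold, adjusted p = 0.0881). Tyk2 and Jak2 rose 1.19-fold and 1.20-fold with PGE2 alone (adjusted p = 0.00879 and 0.0101), and neither passed the test in stimulated cells (adjusted p = 0.0989 and 0.245). Jak1 was 1.16-fold higher with PGE2 in stimulated cells (adjusted p = 0.0415), a call that each of the 8 left-out libraries ended, and at 1.03-fold in unstimulated cells (adjusted p = 0.879). Stimulation lowered 6 of the 8 genes and raised 1, Jak2, both without and with PGE2 (75% lower, beside 34.8% and 31.7% of all genes).

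Among 7 transcription factors tested, PGE2 raised 2 and lowered 0 in each state (28.6% past the test, beside 28.4% of all genes in unstimulated and 9.84% in stimulated cells). Irf1 rose 1.23-fold with PGE2 alone (adjusted p = 0.0374, kept in 2 of the 8 fits that leave out a library, those without PGE2 replicate 1 or 2) and was at 1.27-fold in stimulated cells (adjusted p = 0.0635). Stat3, a STAT of the IL-6 and IL-10 family receptors, rose 1.94-fold and 1.59-fold (adjusted p = 0.00613 and 0.00531). Irf2, a repressor of ISRE promoters, rose 1.32-fold in stimulated cells (adjusted p = 0.0138, and 0.0569 without untreated replicate 2). Irf3, the factor activated by nucleic acid sensors, passed the test in neither state (adjusted p = 0.32 and 0.144).

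Of 7 inhibitors tested, 3 rose and 1 fell with PGE2 alone (57.1%, beside 28.4% of all genes), and 1 rose in stimulated cells (14.3%, beside 9.84%). The feedback genes Socs1 and Socs3 rose 1.32-fold and 1.30-fold with PGE2 alone (adjusted p = 0.000884 and 0.00663) and did not pass the test in stimulated cells (adjusted p = 0.853 and 0.241). Samhd1, a dNTP hydrolase, rose 1.52-fold and 1.64-fold (adjusted p = 0.000271 and 0.00092). Ptpn6, which encodes the phosphatase SHP-1, fell to 0.541 of its level with PGE2 alone (adjusted p = 2.98e-06), was at 0.846 in stimulated cells (adjusted p = 0.0957), and differed between the states (log2 difference 0.66, SE 0.10, adjusted p = 0.00382). Socs1 also rose with stimulation, 3.69-fold without and 3.04-fold with PGE2.

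Of 10 sensors and adaptors outside the list of 36, 0 rose and 2 fell with PGE2 alone (20%, beside 28.4% of all genes) and none passed the test in stimulated cells (beside 9.84%). Mb21d1, the gene of the DNA sensor cGAS, was at 0.762 of its level (adjusted p = 0.0235, lost without untreated replicate 2 or 4 or PGE2 replicate 2 or 3), and the adaptor gene Traf3 at 0.854 (adjusted p = 0.0462, lost without each library but PGE2 replicate 1). In a list of 69 other interferon-induced genes, 17 rose and 5 fell of 65 tested with PGE2 alone (26.2% and 7.69%, beside 12.9% and 15.5% of all genes). In stimulated cells 10 rose and 4 fell of 67 tested (14.9% and 5.97%, beside 6.04% and 3.80%). Parp12, a relative of Parp14, rose 1.86-fold with PGE2 alone (adjusted p = 0.000217). Irgm2 and Gbp5, of the same GTPase families as Igtp and Gbp2, rose 1.72-fold and 2.18-fold in stimulated cells (adjusted p = 0.00207 and 0.000343). Ly6c2, a surface protein gene with a near-identical copy in Ly6c1, fell to 0.493 of its level with PGE2 alone (adjusted p = 0.000579).

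Of 15 antigen processing genes, 3 rose and 4 fell with PGE2 alone (20% and 26.7%, beside 12.9% and 15.5% of all genes) and 1 rose in stimulated cells (6.67%, beside 6.04%). Tap1, a subunit of the peptide transporter, rose 1.28-fold and 1.31-fold (adjusted p = 0.0051 and 0.00646), while Psme2, a proteasome activator subunit, fell to 0.781 of its level with PGE2 alone (adjusted p = 0.00508). Stimulation raised 25 and lowered 19 of the 67 other induced genes tested without PGE2 (37.3% and 28.4%, beside 31.7% and 34.8% of all genes), and 25 and 13 with it (37.3% and 19.4%, beside 32.5% and 31.7%).

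Reads of neighbouring or similar genes limit a few of these values. Of the 36 genes, 12 share exon bases with another annotated gene, at most 16.8% of their exon bases, and the partner was above 1 CPM for 5 of them, Parp9 with Dtx3l, Igtp with Irgm2, Irf7 with Phrf1 and Irf9 with Rnf31. Parp9 and Dtx3l overlap on opposite strands, and since the use of strand in the counting is not stated, their reads in the shared bases cannot be told apart. Oas1a, Ifit3, Trim30a, Gbp2 and Gbp3 have close relatives in the genome, and how reads that match several genes were counted is not stated.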

How the data were processed

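Poly(A)-enriched RNA of 16 samples was sequenced. The authors aligned the reads to GRCm38 with HISAT2 2.0.5 and deposited raw gene counts from featureCounts 1.5.0-p3 and FPKM values, per the study's methods and the submitters' processing notes, which also name DESeq2 1.20.0. The annotation release and the use of strand are not given in the sources used here. The members and gene lists were chosen with earlier results of these data known.

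Counts were tested in R 4.3.3 with edgeR 4.0.16 (genes kept by filterByExpr with a minimum count of 10, TMM factors, two-sided quasi-likelihood test, Benjamini-Hochberg adjustment over all genes tested), on the 8 samples of each pairwise comparison and on all 16 for the interaction. SEs were derived from the fold change and the F statistic. CPM values use TMM factors of all 16 samples. FPKM served for levels between genes and for limma 3.58.1 as an alternative. DESeq2 1.42.0, other normalizations and filters, a replicate block and leaving out each library were the other alternatives. The pairwise edgeR, DESeq2 and limma fits, the pairwise replicate block and the interaction without a block were checked on simulated data. The motif, overlap and summary steps were not.

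Replicates differed beyond counting noise, with a chi-square per degree of freedom of 7.81 to 51.3 between samples of a group, so each counted as 1 sample. Intervals of counting error would cover such noise only. Samples of the same number deviated together from their group means for PGE2 in unstimulated cells (r = 0.443, 0.137, 0.287 and 0.429 for numbers 1 to 4), PGE2 in stimulated cells (0.425, 0.191, 0.299 and 0.409) and stimulation without PGE2 (0.360, 0.112, 0.270 and 0.221), where every r was above 0.1. For stimulation with PGE2 (0.205, 0.0437, 0.281 and 0.0914) not every r was. For PGE2 in stimulated cells, number 2 had a higher r with another number (0.248) than with its own (0.191). The labels do not say what a number shares.

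Named with values in every sample are Irf7, Irf9, Stat2, Isg15, Usp18 and, in each pairwise comparison, the 4 genes with the largest change past the test and a mean of at least 1 CPM. Mx1 was added after its values were seen. Of the pathway lists, the receptors, kinases and main factors and the genes with the largest changes by PGE2 are named.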

Additional observations from a re-analysis of the deposited data

Results flagged for a closer look

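Among the 144 combinations of the 36 genes and 4 groups, 8 had 1 sample whose gap to the other 3, as a share of the range, was above Dixon's critical value for groups of 4. Chance flags about 1 in 20 such groups. Replicate 2 was the high sample in 5 of the 8. In unstimulated PGE2 cells Irf7 was at 58.9 CPM in replicate 2, the others lying at 46.3 to 47.5 CPM. In unstimulated untreated cells Lgals3bp was at 96.9 CPM in replicate 2, beside 81.4 to 83.6 CPM. In stimulated PGE2 cells replicate 2 held Stat2 at 132 CPM, beside 98.4 to 103 CPM, Mx1 at 19.3 CPM, beside 9.73 to 11.0 CPM, and Dtx3l at 200.0 CPM, beside 176 to 179 CPM. Replicate 4 was high for Ifi44 in unstimulated PGE2 cells, at 0.835 CPM beside 0.287 to 0.378 CPM, and for Gbp3 in unstimulated untreated cells, at 61.3 CPM beside 46.2 to 48.7 CPM. The low sample was that of Samd9l in stimulated PGE2 cells, at 165 CPM in replicate 1 beside 195.5 to 199.4 CPM.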

How the results depend on the processing

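The number of the 36 genes past the test, 17 and 6 for PGE2 in unstimulated and stimulated cells, 31 and 28 for stimulation without and with PGE2 and 0 for the interaction, was 20, 7, 31, 28 and 0 with DESeq2. No gene that passed the test changed direction under any alternative. Requiring a 2-fold change as well left 0, 1, 15 and 10 in the pairwise comparisons. Limma on log2(FPKM + 1) without a filter gave 11 and 2 for PGE2 in unstimulated and stimulated cells. The replicate block gave 28 and 23 there, 34 and 32 for stimulation without and with PGE2, and 2 for the interaction (Irf7, log2 difference -0.64, adjusted p = 0.00905, and Rtp4, -0.79 and 0.0417). The numbers paired the samples for PGE2 in unstimulated cells. In stimulated cells all but number 2 were closest to their own number. For stimulation with PGE2 and the interaction the samples share only a number. The deviations were highest between equal numbers in 13 of 16 pairs over the pairwise comparisons. The cause of these shifts was not tested. Leaving out each library in turn gave 15 to 22, 4 to 5, 30 to 32, 25 to 30 and 0 to 0 genes. Over the single genes past the test and all alternatives but the fold threshold, 284 of 306, 83 of 108, 535 of 546 and 470 of 494 values kept the call. With upper-quartile factors the median log2 fold change of all genes shifted to -0.13 for stimulation without and -0.13 with PGE2, and the 36 genes split 25 higher and 6 lower, and 22 and 6. For the scarcest genes depth is a limit, Ifi44 having 6 to 25 counts in unstimulated untreated libraries.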
